A study of Mus musculus with 8 samples.

Results

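Mouse 3T3-L1 adipocytes that received palmitate and the inhibitor A66 together were compared with adipocytes left untreated, across all genes that passed a filter on low counts. The comparison rests on 4 of the 8 RNA-seq libraries of the series, 2 from cells given both agents and 2 from untreated cells. Of the 43629 genes counted, 14587 were tested. 3T3-L1 is a line of mouse preadipocytes that becomes fat-storing adipocytes in culture after exposure to insulin, dexamethasone, isobutylmethylxanthine and rosiglitazone. On day 8 after induction, the cells received 2 μM A66, or 0.5 mM palmitate bound to bovine serum albumin at a molar ratio of 3 to 1, or both, or were left without addition, and RNA was taken after 24 h. The labels name neither a solvent nor an albumin control for the untreated cells. The methods of the study, which cover the A66 arm, give a lower dose of A66 and name DMSO as its vehicle. The other 4 libraries, 2 with A66 alone and 2 with palmitate alone, entered the same fit and serve here to place the combined treatment beside its components. The labels number 2 samples in each group, and the methods call those of the A66 arm biological repeats. Nothing says so for the palmitate arms, where p-values measure the spread between samples, which may be technical. All directions follow the sample labels, and which cultures received A66 was not checked from the libraries themselves. If the labels with and without A66 were exchanged, the comparison described here would be one of palmitate alone with A66 alone. That contrast, added after the data had been seen, called 432 of the 14587 genes (2.96%), 256 higher (1.75%) and 176 lower (1.21%). Of the calls by the labels as given, 64 higher and 24 lower ones were shared with it in direction.

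Palmitate is the main saturated fatty acid of the diet. Adipocytes take it up, couple it to coenzyme A, and store it as triglyceride, desaturate and elongate it, or burn it in mitochondria. A66 blocks p110α, the catalytic subunit of class I phosphoinositide 3-kinase (PI3K) that relays most of the insulin signal. Insulin acting through PI3K and AKT promotes glucose uptake and lipid synthesis, restrains lipolysis and keeps FOXO transcription factors out of the nucleus. The combined treatment asks what adipocytes express when they meet a saturated fatty acid load while this branch of insulin signalling is inhibited.

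The libraries carried the transcripts of fat cells. Fabp4, the fatty acid-binding protein of adipocytes, stood at 2783 and 2876 CPM (read counts scaled to a common effective library size) in untreated cells and at 2639 and 3054 CPM after the combined treatment. Adipoq, which encodes adiponectin, stood at 2259 and 2347 CPM against 2049 and 2137 CPM, and Pparg, the master regulator of adipogenesis, at 314 and 309.6 CPM against 299.7 and 311 CPM. None of these 3 genes passed the test used throughout, the quasi-likelihood test of edgeR, adjusted over all genes by Benjamini-Hochberg, which gave adjusted p = 0.95, 0.076 and 0.76. Other adipocyte genes did, and of the 27 identity genes and adipokines tested, 12 were lower and 0 higher, as described below. That is 44.4% called beside 7.5% of all genes. Of 12 macrophage markers, 5 reached the filter. Adgre1 and Fcgr1 had 0 counts in all 8 libraries and Ptprc had 1 count in a single library. Among 8 endothelial markers 3 reached it, and Kdr and Cldn5 had 0 counts throughout. Summed over the markers tested, the macrophage list amounted to 13.5 and 14.3 CPM in untreated cells and 18.1 and 19.4 CPM after the combined treatment, and the endothelial list to 1.15 to 1.75 CPM in the 4 libraries. Fibroblast and preadipocyte transcripts were abundant, as Col1a2 at 3069 to 3117 CPM shows, and Dlk1, a marker of undifferentiated preadipocytes, had 0 counts. In such bulk RNA, fewer cells of a type and less RNA per cell cannot be told apart.

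The 4 libraries held 42247091 to 53401796 counts, and a gene with 3 counts, the smallest amount treated as detected, lay at 0.0562 to 0.0710 CPM. These floors cover counting error only. Mitochondrially encoded transcripts took 10.9% and 10.5% of the counts of untreated cells and 11.4% and 11.8% after the combined treatment. RNAs that lack the tail of messenger RNA also took a larger share, although the libraries were made by oligo-dT selection. The mitochondrial ribosomal RNAs mt-Rnr1 and mt-Rnr2, Gm42418, which lies in ribosomal RNA sequence on chromosome 17, and Rmrp, Rpph1 and Rn7sk, chosen after their values had been seen, summed to 1.54% and 1.70% of counts in untreated cells and to 2.50% and 3.09% after the combined treatment, with 2.28% and 2.78% after A66 and 1.84% and 2.26% after palmitate. These shares separate the untreated libraries from all treated ones, and their part in the results below was not tested.

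Gene groups that moved are introduced by the sequences in front of some of their members, since the same short motifs recur there. The stretches lie upstream of the transcription start of RefSeq on GRCm38.p6, are written 5′ to 3′ on the strand of the gene, and carry the matches in capitals. For the interferon-stimulated genes, the capitals mark the core of the interferon response element, AAANNGAAA, read on either strand. Ifit1 encodes an antiviral RNA-binding protein (chr19:34640745-34640852, + strand) and Isg15 a ubiquitin-like modifier (chr4:156200835-156200935, - strand, with 3 overlapping matches).
Ifit1: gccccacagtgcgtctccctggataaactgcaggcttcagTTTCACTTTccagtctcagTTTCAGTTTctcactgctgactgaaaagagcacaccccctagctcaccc
Isg15: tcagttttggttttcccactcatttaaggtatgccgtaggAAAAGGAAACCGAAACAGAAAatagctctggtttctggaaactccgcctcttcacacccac

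For 2 genes of the amino acid stress response, the capitals mark TGATGCAA, a core bound by ATF4 with its partners. Slc7a11 encodes the cystine transporter xCT (chr3:50443614-50443719, - strand) and Atf3 a stress-induced transcription factor (chr1:191183396-191183483, - strand).
Slc7a11: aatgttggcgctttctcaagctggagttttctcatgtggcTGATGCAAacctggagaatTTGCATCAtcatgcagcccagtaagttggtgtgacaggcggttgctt
Atf3: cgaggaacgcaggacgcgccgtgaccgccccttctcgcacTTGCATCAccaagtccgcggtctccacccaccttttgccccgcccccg

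For 2 enzymes of cholesterol synthesis, the capitals mark the CCAAT box, the site of NF-Y, which works beside SREBP in this pathway. Lss is lanosterol synthase (chr10:76531503-76531587, + strand) and Mvd is mevalonate diphosphate decarboxylase (chr8:122443423-122443522, - strand).
Lss: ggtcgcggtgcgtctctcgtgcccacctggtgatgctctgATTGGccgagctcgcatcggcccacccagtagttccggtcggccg
Mvd: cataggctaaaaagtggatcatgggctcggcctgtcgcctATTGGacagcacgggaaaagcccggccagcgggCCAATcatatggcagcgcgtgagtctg

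Over windows from 250 bases before to 50 bases after the start, the interferon core was found in 7 of the 11 interferon-stimulated genes that fell and had a window, in 11 of the 18 other members, in 9.53% of all genes tested with a window, and in 10.6% of all 32851 windows. The ATF4 core was found in 2 of the 7 members of its list that rose, in 5 of the 19 others with a window, in 0.741% of such genes, and in 0.895% of all windows. The CCAAT box was found in all 13 cholesterol genes that rose and had a window, in 6 of the 9 others, in 43.3% of such genes, and in 37.4% of all windows. A sterol element core, TCACNCCAC, was found in 0 of those 13, in 1.47% of such genes and in 1.24% of all windows. A gene with several windows was counted once if any of them held the motif. The motifs were chosen after the values had been seen, and a match is a description of the sequence, not of binding.

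The combined treatment changed 1094 of the 14587 genes tested (7.5%), at an adjusted p under 0.05. Of these, 553 were higher (3.79% of genes tested) and 541 were lower (3.71%) than in untreated cells. The changes were small. The median size of a called change was 0.24 on the log2 scale, 102 genes were called with a change of at least 1.5-fold (52 higher, 50 lower), and 33 with at least 2-fold (14 higher, 19 lower). When the test itself asked for more than 1.5-fold, only Cpm, Ifi44, Oasl2 and Adcyap1r1 were called, all lower. At an unadjusted p under 0.05 there were 3041 genes. The 2 untreated and the 2 combined libraries did not overlap for 7244 of the genes tested (49.7%), and where groups are said below not to overlap, this is a description to be read against that share. Scaling by library size alone gave 367 higher and 859 lower genes, and it moved the median log2 fold change of all genes from -0.001 to -0.03. The number of calls fell to 550 without untreated library 1, to 437 without combined library 1 and to 679 without combined library 2.

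**Figure D1:**
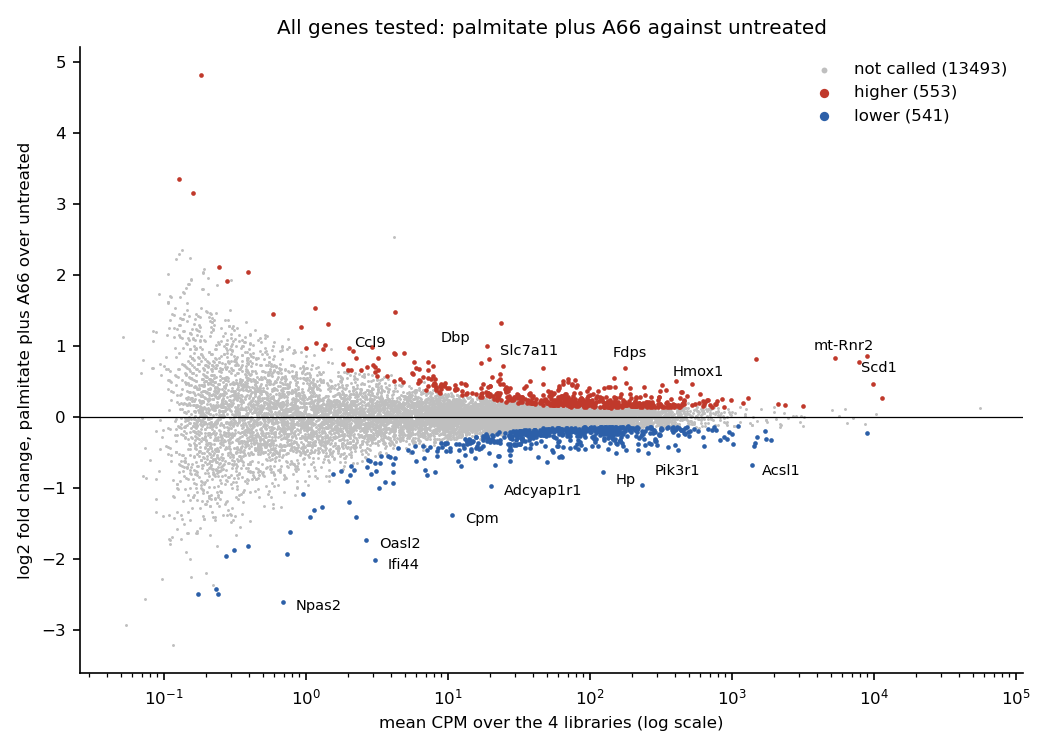
Log2 fold change of palmitate plus A66 over untreated (vertical axis) against mean CPM over the 4 libraries (horizontal axis, log scale), 1 point per gene tested, with 553 higher genes in red, 541 lower genes in blue and the genes not called in grey. Most called genes lie within 1 log2 unit of 0, and the lowest of the labelled genes are Npas2, Ifi44, Oasl2 and Cpm.

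**Figure D2:**
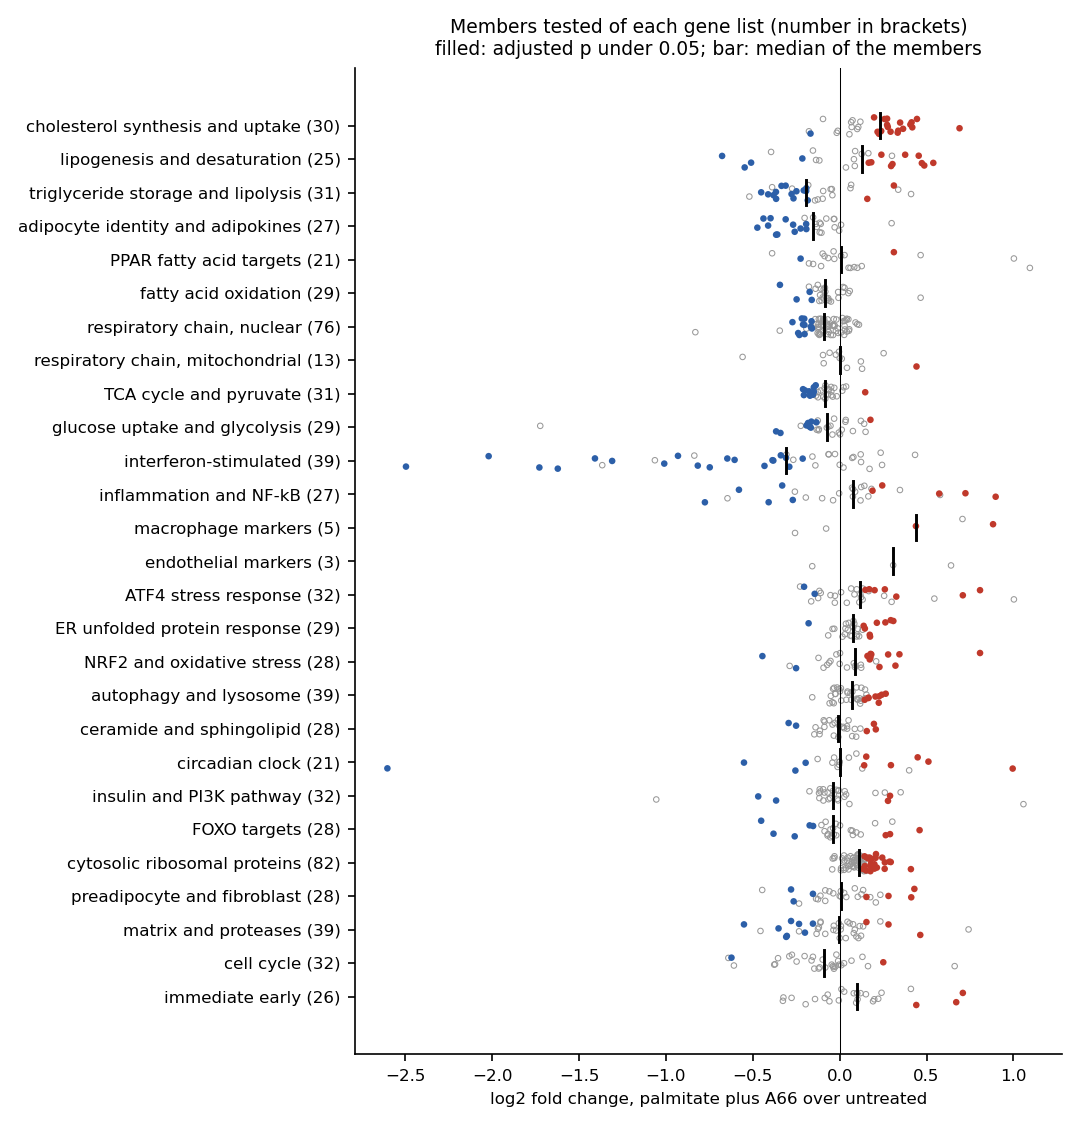
Log2 fold change of palmitate plus A66 over untreated (horizontal axis) for each member tested of 27 gene lists (rows, number of members in brackets), with filled points at an adjusted p under 0.05, red where higher and blue where lower, open points otherwise, and a black bar at the median of the list. Cholesterol genes lie mostly to the right of 0, and interferon-stimulated, triglyceride and adipocyte genes mostly to the left.

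Most genes of cholesterol synthesis and uptake rose. Of 30 members tested, 18 were higher and 1 was lower, with a median log2 fold change of 0.23 where the median of all genes was -0.001. Fdps, farnesyl diphosphate synthase of the mevalonate pathway (chr3:89093588-89101959), stood at 131 and 142 CPM in untreated cells and at 223 and 218 CPM after the combined treatment. Both treated libraries lay above both untreated ones, a 1.61-fold rise (log2 0.69 ± 0.044 SE, adjusted p = 3.2e-09). Msmo1, a sterol demethylating oxidase, went from 271 and 280.4 CPM to 378 and 373 CPM (log2 0.44 ± 0.040). Cyp51, lanosterol demethylase, went from 129 and 128 CPM to 168.5 and 173 CPM (log2 0.41 ± 0.042). The enzymes that rose run from the mevalonate branch (Pmvk 0.29, Mvd 0.33, Idi1 0.24) through squalene (Fdft1 0.42, Sqle 0.27, Lss 0.28) to the last sterol steps (Hsd17b7 0.35, Nsdhl 0.23, Sc5d 0.41, Dhcr7 0.22), all as log2 fold changes. The regulators Srebf2, which encodes SREBP-2, and Insig1, which retains SREBPs in the endoplasmic reticulum, rose by 0.26 and 0.37 on the log2 scale. The one member that fell was Abca1, the cholesterol exporter, at 584 and 557 CPM against 495 and 521 CPM. Without each library in turn, 14 to 19 members were higher. With the labels with and without A66 exchanged, 23 were higher and 3 lower, with a median of 0.49.

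Beside the single treatments, the cholesterol genes stood as follows. The median log2 fold change of the 30 members over the same 2 untreated libraries was 0.34 with palmitate alone, -0.15 with A66 alone and 0.23 with both. Because all 3 values share the untreated libraries, the direct contrasts were used for the differences. Against A66 alone, the combined treatment called 398 of all genes (2.73%), 213 higher (1.46%) and 185 lower (1.27%), and among the cholesterol genes 24 were higher and 2 lower. Against palmitate alone, it called 410 of all genes (2.81%), 142 higher (0.973%) and 268 lower (1.84%), and among the cholesterol genes 4 were lower, among them Dhcr7, Mvk and Hmgcs1 at -0.14 to -0.25 on the log2 scale, and none was higher. In A66-treated cells Fdps stood at 124 and 127 CPM and in palmitate-treated cells at 214 and 209 CPM. Its levels with palmitate and with both agents lay apart from those of the other 2 groups (log2 0.81 against A66 alone, adjusted p = 1.3e-10).

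**Figure D3:**
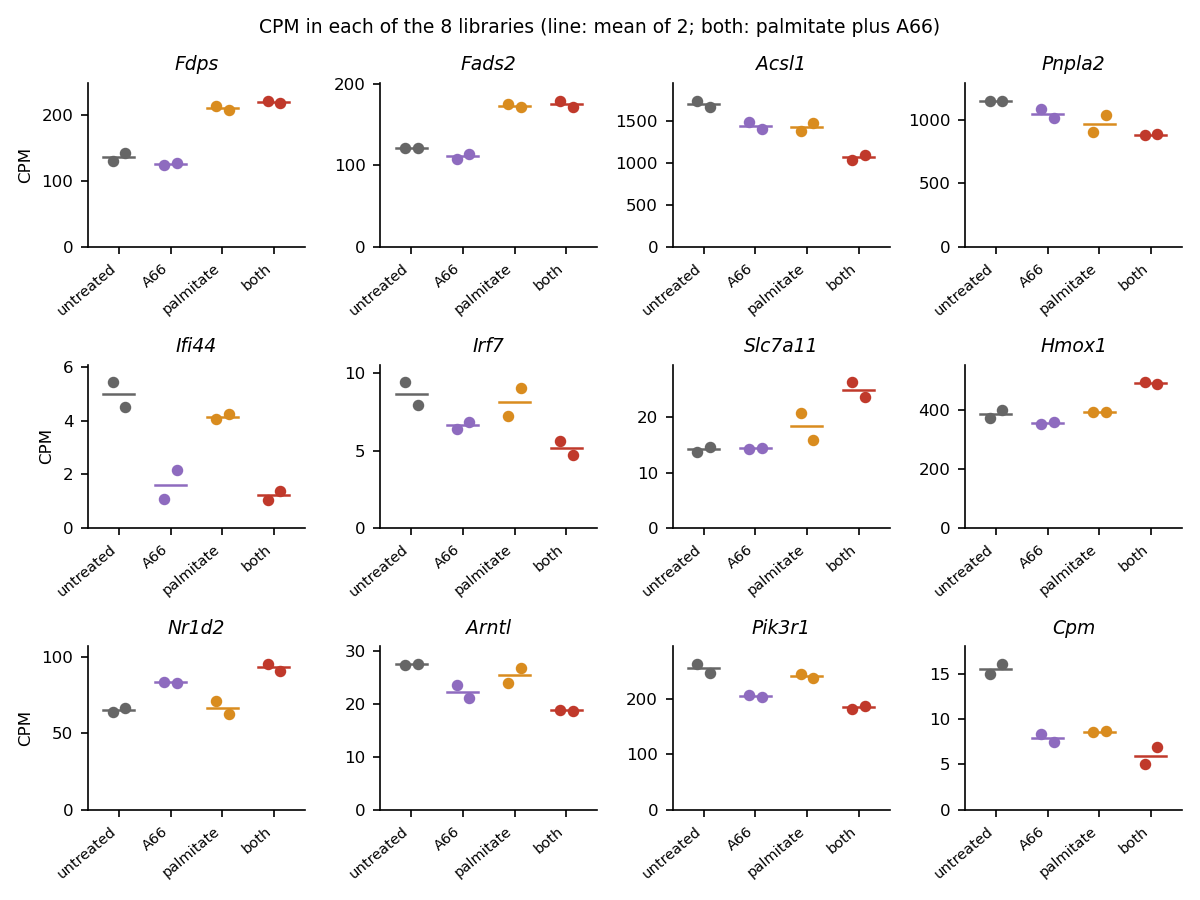
CPM of 12 genes in each of the 8 libraries (vertical axes from 0), with the 2 libraries of each group as points, their mean as a line, and palmitate plus A66 marked as both. Fdps and Fads2 are high in both palmitate groups, Ifi44 and Pik3r1 are low in both A66 groups, and Hmox1 is highest with both agents.

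Fatty acid synthesis and desaturation split into genes that rose and genes that fell. Of 25 members tested, 10 were higher and 4 lower, with a median of 0.13 on the log2 scale. Desaturases were among the genes that rose. Fads2, the delta-6 desaturase (chr19:10062765-10101746), went from 121 and 121 CPM to 179.5 and 172 CPM, a 1.45-fold rise with adjusted p = 7.3e-08. Fads1, the delta-5 desaturase, rose by 0.38 and Scd1, the main stearoyl-CoA desaturase, by 0.46 on the log2 scale, the latter from 8460 and 8356 CPM to 10850 and 12200 CPM. The 2 groups did not overlap for any of the 3, as for 49.7% of all genes. Enzymes that supply acetyl-CoA also rose, Acss2 by 0.49 and Acly by 0.30, as did the acyl-CoA synthetases Acsl4 (0.47) and Acsl3 (0.30) and the elongase Elovl5 (0.24).

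Acsl1, the main acyl-CoA synthetase of adipocytes (chr8:46471037-46536051), went the other way. It stood at 1747 and 1665 CPM in untreated cells, at 1489 and 1405 CPM with A66, at 1385 and 1483 CPM with palmitate and at 1036 and 1098 CPM with both. The combined libraries lay below all 6 others (log2 -0.68 ± 0.047, adjusted p = 7.6e-09 against untreated cells, 2.0e-05 against palmitate and 2.2e-06 against A66). Thrsp and Pnpla3, lipogenic genes that insulin and carbohydrate induce in fat and liver, fell by 0.51 and 0.55, and Fasn, fatty acid synthase, fell by 0.22 on the log2 scale, from 1029 and 1018 CPM to 871 and 893 CPM. Without each library in turn, the list gave 8 to 10 higher members. Its lower members numbered 2 to 5, with 2 left when combined library 1 was left out.

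Genes of triglyceride storage and lipolysis that were called mostly fell. Of 31 members tested, 14 were lower and 2 higher, with a median log2 fold change of -0.19. Exchanging the labels with and without A66 gave 1 lower and 1 higher, with a median of -0.02. Pnpla2, adipose triglyceride lipase (chr7:141455198-141460743), went from 1156 and 1149 CPM to 880.2 and 889.8 CPM, 1.30-fold lower with adjusted p = 4.1e-05. Its coactivator Abhd5 went from 185 and 182 CPM to 145.5 and 145 CPM (log2 -0.34 ± 0.040, adjusted p = 8.0e-06). Neither gene showed any overlap between the groups. Lipe, hormone-sensitive lipase, fell by 0.19, Adrb3, the β3-adrenergic receptor that triggers lipolysis, by 0.31, and G0s2, an inhibitor of Pnpla2, by 0.21 on the log2 scale. On the synthetic side Dgat2, which makes the final ester bond of triglyceride, fell by 0.37, Gpat3 by 0.25, Gpam by 0.18 and Lpin1 by 0.28.

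The lipid droplet coat proteins divided. Plin4 (-0.37), Cidec (-0.41) and Plin1 (-0.19), coat proteins of adipocyte droplets, fell, as did Fitm2 (-0.27), which helps droplets form. Plin2 and Plin3, which coat droplets in most cell types, were the 2 members that rose. Plin2 went from 209 and 226 CPM to 264 and 276 CPM (log2 0.31 ± 0.044, adjusted p = 5.6e-05). Without combined library 1 the lower members of the list numbered 7, and without untreated library 1 they numbered 9. Against A66 alone 12 members were lower and 1 higher, and against palmitate alone 4 were lower.

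Adipocyte identity genes and adipokines gave 12 lower and 0 higher members out of 27, with a median of -0.15. Under exchanged labels with and without A66, 2 were lower and 1 higher, with a median of -0.09. Agt, angiotensinogen, went from 491 and 480.4 CPM to 358 and 341 CPM, 1.39-fold lower (adjusted p = 3.1e-07). Retn, resistin, went from 324 and 353 CPM to 265 and 249 CPM, 1.32-fold lower (adjusted p = 8.8e-06). Slc2a4, the insulin-responsive glucose transporter GLUT4, went from 157 and 155 CPM to 118 and 124 CPM, 1.29-fold lower (adjusted p = 2.6e-05). The groups did not overlap in any of these, and for all 3 the combined treatment was also lower than A66 alone and than palmitate alone. Ppargc1b, the coactivator PGC-1β, fell by 0.44, Klf15 by 0.26 and Lpl, lipoprotein lipase, by 0.23 on the log2 scale. Cebpa, Lep and Cd36 were not called, with Cebpa at -0.20 (adjusted p = 0.11), Lep at -0.11 and Cd36 at -0.03. Preadipocyte and fibroblast markers gave 4 higher and 3 lower of 28, with a median of 0.01, and 1 and 1 without combined library 1. The count of 12 fell to 6 without combined library 1, and was 9 without either untreated library.

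**Figure D4:**
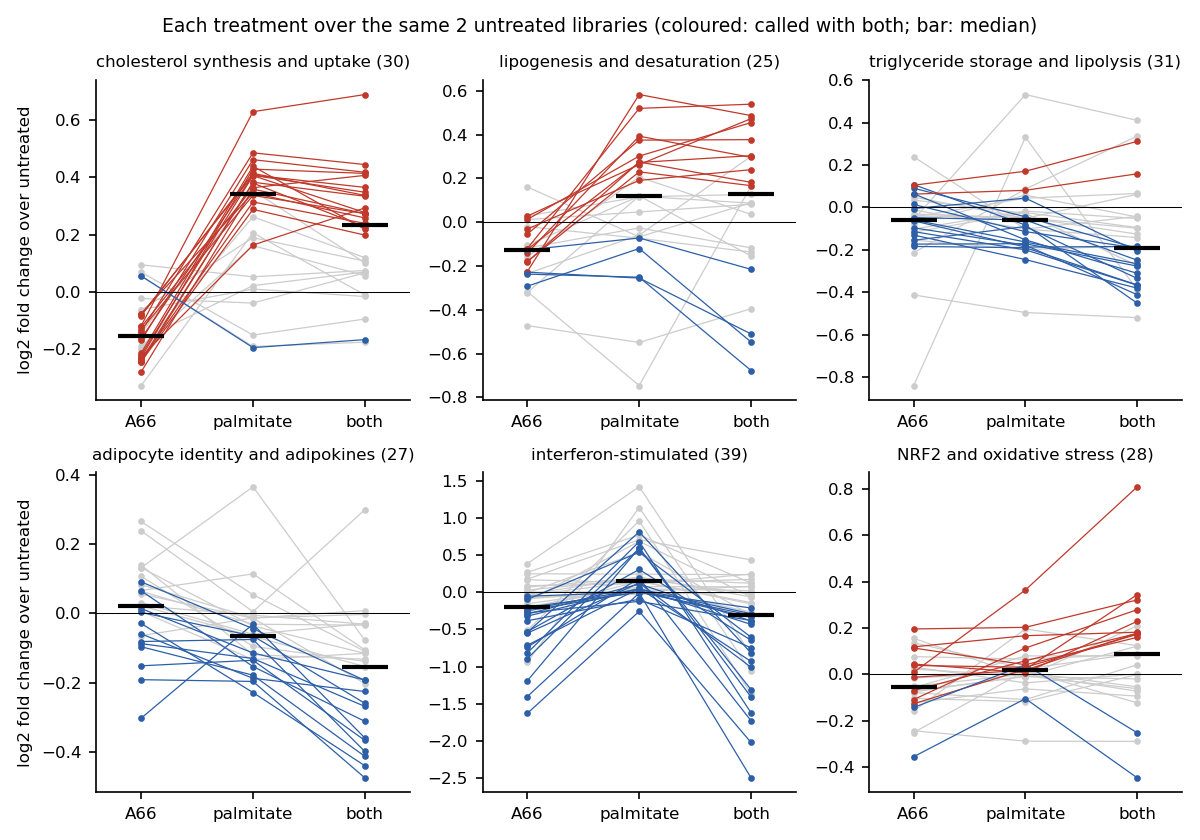
Log2 fold change over the 2 untreated libraries (vertical axes) with A66, with palmitate and with both, 1 line per member tested of 6 gene lists, coloured where the member was called with both agents (red higher, blue lower) and grey otherwise, with black bars at the medians. The medians of the cholesterol list are -0.15, 0.34 and 0.23, and those of the interferon list are -0.20, 0.15 and -0.31.

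Nuclear genes of the respiratory chain and the TCA cycle that were called were mostly lower. Of 76 nuclear respiratory chain genes, 12 were lower and 0 higher, with a median of -0.09, or 15.8% called beside 7.5% of all genes. Ndufb7 of complex I went from 60.5 and 59.8 CPM to 50.3 and 49.4 CPM (log2 -0.27 ± 0.054), and Cycs, cytochrome c, from 252 and 253 CPM to 212 and 216 CPM (log2 -0.24 ± 0.040). Of 31 genes of the TCA cycle and pyruvate oxidation, 9 were lower, among them Cs, citrate synthase (-0.17), Ogdh (-0.21), Mdh1 (-0.21) and the pyruvate dehydrogenase genes Pdhx, Pdhb and Dlat (-0.20 to -0.14), and 1, Idh2, was higher (0.15). Of 29 genes of fatty acid oxidation, 4 were lower (Crat -0.34, Acadm -0.25, Etfdh -0.17, Hadh -0.16) and 0 higher, or 13.8% called beside 7.5% of all genes. Scaling by library size alone gave 7 lower, and leaving out untreated library 2 or combined library 1 gave 2 and 1. Of the 13 protein genes of mitochondrial DNA, mt-Nd4l was the only one called (0.44, adjusted p = 0.0498), and it was not called without A66 library 2, without combined library 2, where 1 of the 13 was lower, on the 4 libraries alone or with scaling by library size alone.

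These mitochondrial counts depend on single libraries. The lower respiratory chain genes numbered 4 without untreated library 2, 4 without combined library 2 and 7 without combined library 1, but 16 without untreated library 1 and 20 with scaling by library size alone, and 2 members were called higher without untreated library 2. The lower TCA genes numbered 3 without combined library 1, 4 without combined library 2 and 5 without untreated library 2. Those of fatty acid oxidation numbered 1 without combined library 1 and 2 without untreated library 2. Beside palmitate alone, 13 respiratory chain genes were lower with both agents, and beside A66 alone 10 were, with 0 higher in either contrast. Of all genes, 1.84% and 1.27% were lower in these contrasts. With palmitate or A66 alone, the medians of the list over untreated cells were 0.02 and 0.03. When the labels with and without A66 were exchanged, 1 respiratory chain gene was higher and 0 lower. The TCA and fatty acid oxidation lists then gave 0 higher and 0 lower.

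Glucose uptake and glycolysis gave 8 lower and 1 higher of 29, with a median of -0.07. Beside Slc2a4, the largest falls were in Pfkfb3, which makes the activator of glycolysis fructose 2,6-bisphosphate (68.7 and 66.7 CPM against 53.3 and 53.5 CPM, log2 -0.34 ± 0.052), Ppp1r3c, a glycogen-targeting subunit (-0.19), and Pfkm (-0.18). Pgd, of the pentose phosphate pathway, was the member that rose (0.18). The lower members numbered 13 with scaling by library size alone, 10 with DESeq2, 2 without combined library 1, and 5 without combined library 2 and without either untreated library.

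Interferon-stimulated genes fell by the labels, and this direction turned when the labels with and without A66 were exchanged. Of 39 members tested, 19 were lower and 0 higher, with a median of -0.31. After the exchange, 15 were higher and 0 lower, with a median of 0.38. Ifi44 (chr3:151730922-151749960), a gene induced by type I interferon, stood at 5.44 and 4.51 CPM in untreated cells, at 1.08 and 2.15 CPM with A66, at 4.06 and 4.23 CPM with palmitate and at 1.05 and 1.39 CPM with both. The combined libraries lay below both untreated and both palmitate libraries and close to the A66 libraries (4.06-fold below untreated, adjusted p = 4.3e-06). Oasl2, a 2′-5′ oligoadenylate synthetase-like gene, went from 4.88 and 3.37 CPM to 1.401 and 1.06 CPM, 3.32-fold lower (adjusted p = 4.1e-05). Irf7, the transcription factor that amplifies the interferon response, went from 9.44 and 7.95 CPM to 5.63 and 4.70 CPM, 1.68-fold lower. Xaf1 (-0.93), Gbp3 (-1.01), Mx2 (-1.31), Usp18 (-1.41), Rtp4 (-1.62), Ifit1 (-0.82) and Isg15 (-0.65) fell among the genes of low level. Irf9 and Ddx58, which carry or sense the signal and stood at 13.2 to 38.9 CPM, fell by 0.43 and 0.39 on the log2 scale.

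Members of the antigen presentation arm of this list were not called, with B2m at 0.02, H2-K1 at 0.07, H2-D1 at 0.08 and Tap1 at 0.12 on the log2 scale, and neither was Irf1 (0.00). Several members lie near the floor. Rsad2, for instance, was at 0.259 and 0.333 CPM against 0.062 and 0.040 CPM, and its fold is not given. The count of 19 fell to 8 without untreated library 1 and to 10 without combined library 2, and it was 13 without combined library 1. Over the shared untreated libraries, the medians were 0.15 with palmitate alone, -0.20 with A66 alone and -0.31 with both. In the direct contrasts, 24 of the 39 were lower with both agents than with palmitate alone and 0 were higher, among them Rtp4 (-2.30, adjusted p = 0.00051), Oasl2 (-1.92, adjusted p = 6.1e-05) and Ifi44 (-1.76, adjusted p = 0.00017). Against A66 alone 2 were lower and 1 higher.

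Inflammatory genes went both ways, 5 higher and 5 lower of 27. The members that fell were these. Hp, haptoglobin, went from 145 and 168 CPM to 96.6 and 86.3 CPM (log2 -0.78 ± 0.071, adjusted p = 3.1e-07), C3 from 1667 and 1619 CPM to 1211 and 1264 CPM (log2 -0.41 ± 0.044), Orm1 and Orm2 fell by 0.27 and 0.58, and Nfkbia, the NF-κB inhibitor, by 0.33. The members that rose were these. Ccl9, a chemokine, went from 3.74 and 3.14 CPM to 6.33 and 6.44 CPM (log2 0.90 ± 0.14, adjusted p = 0.00015), Ptgs2, cyclooxygenase-2, rose by 0.57, Lcn2 by 0.72, Vcam1 by 0.25 and Tlr4 by 0.19. The groups did not overlap for any of these. Among the macrophage markers, Cd68, which encodes a protein of the late endosome and lysosome, went from 2.57 and 3.42 CPM to 5.40 and 5.74 CPM (log2 0.88, adjusted p = 0.0010) and Cd14 from 7.47 and 7.49 CPM to 10.1 and 10.2 CPM (log2 0.44), while Lyz2 was at -0.26 and not called, and the defining marker Adgre1 was at 0 counts. Without combined library 1, 1 inflammatory gene was higher and 3 were lower. Without untreated library 1, 3 were higher and 3 were lower, and without untreated library 2, 5 were higher and 3 were lower. Without any one of the 4 libraries compared, Cd68 was called and Cd14 was not.

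Stress response genes that were called were mostly higher. The list of ATF4 targets and the integrated stress response gave 7 higher and 2 lower of 32, with a median of 0.12. Slc7a11 (chr3:49892526-50443614) stood at 13.8 and 14.7 CPM in untreated cells, 14.4 and 14.4 CPM with A66, 20.9 and 15.9 CPM with palmitate and 26.4 and 23.7 CPM with both. The combined libraries were the highest of the 8, 1.75-fold above untreated cells (adjusted p = 1.2e-05), and also above A66 alone (0.80, adjusted p = 2.3e-05) and palmitate alone (0.44, adjusted p = 0.011). Atf3 went from 16.1 and 20.8 CPM to 31.4 and 29.3 CPM (log2 0.71 ± 0.099), and Atf4 itself rose by 0.20, Asns, asparagine synthetase, by 0.26 and the mitochondrial folate enzyme Mthfd2 by 0.33. Nupr1 and Slc7a5 were the members that fell (-0.21 and -0.14). The higher members numbered 4 without untreated library 1.

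The unfolded protein response of the endoplasmic reticulum gave 8 higher and 1 lower of 29, with a median of 0.08. Hspa5, the chaperone BiP, went from 1148 and 1237 CPM to 1450 and 1413 CPM (log2 0.26 ± 0.049, adjusted p = 0.0012). Ppp1r15a, the phosphatase subunit GADD34 that ends the translational block, rose by 0.29, and Atf6, Herpud1, Canx and Hsp90b1 by 0.14 to 0.18. The higher members numbered 2 without combined library 1, 3 without untreated library 1, 4 without combined library 2 and 5 without untreated library 2.

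NRF2 targets and oxidative stress genes gave 10 higher and 2 lower of 28, with a median of 0.09. Hmox1, heme oxygenase 1 (chr8:75093621-75100589), stood at 374 and 401 CPM in untreated cells, 352 and 358 CPM with A66, 394 and 393 CPM with palmitate and 494 and 489 CPM with both. The combined libraries lay above the other 6, 1.27-fold above untreated cells (adjusted p = 8.5e-06). Hmox1 was the only one of the 14587 genes (0.00686%) called in the test of the interaction, which asks whether the effect of A66 differed with and without palmitate (log2 0.45 ± 0.059, adjusted p = 0.0019), with 1155 genes at an unadjusted p under 0.05. Without A66 library 1, no gene was called in that test, whereas 10 were without untreated library 2, 21 with DESeq2 and 91 without a filter on low counts. Gsta4 rose by 0.32, Srxn1 by 0.28, Gclm, of glutathione synthesis, by 0.23, and Gpx4, which detoxifies lipid peroxides, by 0.18. The metallothioneins Mt1 and Mt2 fell by 0.25 and 0.45. The higher members numbered 5 without untreated library 1 and 6 without either combined library.

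Autophagy and lysosome genes gave 8 higher and 0 lower of 39, with a median of 0.07, or 20.5% called beside 7.5% of all genes. Sqstm1, the autophagy receptor p62, went from 609 and 647 CPM to 759 and 726 CPM (log2 0.24 ± 0.042), and Gabarapl1, a member of the LC3 family, from 172 and 182 CPM to 212 and 214 CPM (log2 0.27 ± 0.043). The proton pump genes Atp6v1a and Atp6v1h and Ctsa, which encodes cathepsin A, rose by 0.14 to 0.23. The higher members numbered 4 without untreated library 1 and 4 without combined library 1, and 5 without the other library of each group. Among 28 ceramide and sphingolipid genes, 3 were higher and 2 lower, or 17.9% called beside 7.5% of all genes. The higher ones were Asah1, acid ceramidase (0.20), Sgms1 (0.21) and Sgpl1 (0.16). The lower ones were Cers4, a ceramide synthase (-0.29), and Sptlc1, of the enzyme that joins palmitoyl-CoA to serine (-0.25). Without untreated library 1 the list gave 1 higher and 2 lower, and without combined library 2 it gave 1 and 1.

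Clock genes moved in both directions. Of 21 members, 6 were higher and 4 lower. Core activators were among those that fell. Arntl, which encodes BMAL1, stood at 27.4 and 27.6 CPM in untreated cells and at 18.8 and 18.7 CPM after the combined treatment (log2 -0.55 ± 0.074, adjusted p = 3.4e-05), Clock fell by 0.20, and Npas2, a CLOCK paralogue (chr1:39193731-39363236), went from 1.15 and 1.22 CPM to 0.289 and 0.1004 CPM (log2 -2.60 ± 0.49, adjusted p = 0.0014). Other members rose. Nr1d2, which encodes REV-ERBβ, went from 64.1 and 66.7 CPM to 95.7 and 90.8 CPM, 1.43-fold higher (adjusted p = 1.3e-06). Dbp, an output factor (chr7:45705088-45710203), went from 10.8 and 14.4 CPM to 25.7 and 24.8 CPM, 1.99-fold higher (adjusted p = 9.5e-06). Bhlhe40, Per3 and Tef rose by 0.45, 0.30 and 0.14, whereas Per1 fell by 0.26. The untreated and combined libraries did not overlap for any of these genes.

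Beside the single treatments, the clock genes had these values. Over untreated cells, Nr1d2 was at 0.35 with A66 alone and at 0.03 with palmitate alone, Arntl at -0.30 and -0.12, and Dbp at 0.63 and 0.34. If the labels with and without A66 were exchanged, 0 clock genes would be higher and 4 lower. Nr1d2 and Dbp would then turn in direction. Against palmitate alone, Nr1d2 was higher with both agents (0.48, adjusted p = 2.0e-05) and Arntl lower (-0.43, adjusted p = 0.0016), and against A66 alone neither was called (adjusted p = 0.11 and 0.082). All samples were harvested after the same time, as far as the labels say. The higher members numbered 3 without untreated library 1 and 4 without untreated library 2 or either combined library, and the lower members 2 without combined library 1.

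Of the class I PI3K subunits, 1 changed. Pik3ca, which encodes the drug target p110α (chr3:32397671-32468486), stood at 94.4 and 91.8 CPM in untreated cells and at 97.3 and 96.4 CPM after the combined treatment (log2 0.06 ± 0.043, adjusted p = 0.50). Pik3cb, Pik3cd, Pik3r2 and Pik3r3 were not called either, at -0.09, 0.35, -0.05 and -0.12. Pik3r1, which encodes the regulatory subunit p85α (chr13:101680563-101768217), fell from 264 and 247 CPM to 181 and 187 CPM, with 206 and 203 CPM for A66 alone and 245 and 237 CPM for palmitate alone. The combined libraries were the lowest of the 8 (1.38-fold below untreated cells, adjusted p = 3.1e-07, and -0.39 against palmitate alone, adjusted p = 2.0e-05).

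In the rest of the insulin pathway list, Pik3ip1, an inhibitor of p110, rose by 0.29. The list gave 2 higher and 2 lower of 32, or 12.5% called beside 7.5% of all genes, the lower ones being Slc2a4 and Pik3r1. Scaling by library size alone gave 5 lower. FOXO targets gave 3 higher and 5 lower of 28. Gadd45a went from 59.9 and 66.1 CPM to 85.5 and 88.2 CPM (log2 0.46 ± 0.052, adjusted p = 3.4e-06), and Pik3ip1 and Gabarapl1 rose, whereas Pck1, phosphoenolpyruvate carboxykinase, fell from 103 and 88.5 CPM to 60.4 and 79.4 CPM (log2 -0.45 ± 0.11, adjusted p = 0.013), and Pnpla2, Klf15, Bcl6 and Cdkn1a fell too. The lower FOXO targets numbered 2 without untreated library 1 or combined library 1, and 3 without the other library of each group.

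Ribosomal protein genes gave 24 higher and 0 lower of 82, with a median of 0.11 on the log2 scale. Rps21 rose most, from 101 and 116 CPM to 129.5 and 159 CPM (log2 0.41 ± 0.068, adjusted p = 0.00040), and Rpl10 and Rps27a rose by 0.25 and 0.26. By the labels, on which the direction rests, the medians over untreated cells were 0.16 with A66 alone and 0.10 with palmitate alone. These counts rest on the untreated libraries, with 3 higher members without untreated library 1 and 34 without untreated library 2, and with 12 and 11 without combined library 1 and 2. Scaling by library size alone gave 12, and exchanging the labels with and without A66 gave 0 higher and 12 lower, with a median of -0.06. The shares of tail-less RNA given above were higher in all treated libraries than in the untreated ones, and their part in the result was not tested.

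Of 39 matrix and protease genes, 3 were higher and 8 lower. Timp4 and Timp3, inhibitors of metalloproteinases, fell by 0.55 and 0.35 on the log2 scale. The chains of collagen VI fell together, Col6a1 from 1668 and 1626 CPM to 1327 and 1387 CPM (log2 -0.28 ± 0.047), Col6a2 by 0.31 and Col6a3 by 0.20. Mmp11, stromelysin 3, rose from 443 and 440.1 CPM to 594 and 624 CPM (log2 0.46 ± 0.050, adjusted p = 1.9e-06), with 581 and 605 CPM for A66 alone and 407 and 464 CPM for palmitate alone. The A66 and combined libraries lay above the other 4. The lower members numbered 4 without untreated library 1 or combined library 1, and 3 without combined library 2. Among the remaining lists, PPAR targets gave 1 higher (Plin2) and 1 lower (Lpl) of 21, cell cycle genes 1 higher (Mcm7, 0.25) and 1 lower (Mcm5, -0.62) of 32, and immediate early genes 3 higher (Atf3, Ier3 and Jund) of 26. Shares of 9.52%, 6.25% and 11.5% called for these 3 lists stand beside the 7.5% of all genes.

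The largest changes among genes whose higher group had a mean of at least 5 CPM lay partly outside the lists. Cpm, carboxypeptidase M (chr10:117629500-117687352), stood at 15.0 and 16.2 CPM in untreated cells, 8.32 and 7.42 CPM with A66, 8.52 and 8.73 CPM with palmitate and 5.07 and 6.87 CPM with both. By these labels, on which the direction rests, all treated libraries lay below the untreated ones and those with both agents lowest (log2 -1.38 ± 0.12, adjusted p = 2.4e-07). Exchanged labels with and without A66 would set 8.52 and 8.73 CPM against 8.32 and 7.42 CPM, which shows no fall. Adcyap1r1, the receptor of the neuropeptide PACAP, went from 27.4 and 26.3 CPM to 14.2 and 13.0 CPM (log2 -0.98 ± 0.086, adjusted p = 2.4e-07) and was lower than with A66 (-0.88) or palmitate (-0.47). Hif3a (-0.82), Slc25a34, a mitochondrial carrier (-0.78), Aqp2 (-0.78), Prodh, proline dehydrogenase (-0.70), and Fmo1 (-0.68) also fell. Beside Dbp, Ccl9, Cd68 and Slc7a11, the rises were Lrp8, a receptor for reelin and apolipoprotein E (0.89), Nceh1, a cholesteryl ester hydrolase (0.77), Ampd3, AMP deaminase 3 (0.76), Lars2 (0.82), mt-Rnr1 (0.83) and mt-Rnr2 (0.77). Symbols made of Gm and a number were left out of this ranking, among them Gm26870 (1.48), Gm23935 (1.32) and Gm42418 (0.86), which are named here after their values were seen.

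The 2 mitochondrial ribosomal RNAs are among the tail-less RNAs summed above. Lars2, which encodes mitochondrial leucyl-tRNA synthetase, stood at 971 and 1192 CPM in untreated cells, 1394 and 1915 CPM with A66, 1254 and 1614 CPM with palmitate and 1722 and 2095 CPM with both. The combined libraries lay above the untreated ones and overlapped with those of A66. Gm42418 stood at 5962 and 6706 CPM in untreated cells and at 9757 and 11216 CPM with A66. With palmitate it stood at 7570 and 9540 CPM, and with both at 10109 and 12869 CPM. Whether the reads counted for Lars2 come from its messenger RNA was not tested.

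The counts of the direct contrasts also rest on single libraries. Against palmitate alone the 410 calls became 147 without palmitate library 2, 191 without combined library 1 and 211 without combined library 2. Against A66 alone the 398 calls became 107 without A66 library 1 and 140 without combined library 1. The 5 genes with the smallest p against palmitate alone were Tmem140 (0.47), Mmp11, Nr1d2, Pik3r1 and Acsl1, and those against A66 alone were Fdps, Cyp51, Fads2, Msmo1 and Sqle, the last at 0.55. After Hmox1, the smallest p in the interaction belonged to Ogn, Bsg, Rpl36 and Nrep, with adjusted p = 0.061 to 0.13.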

How the data were processed

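RNA from 8 samples of 3T3-L1 adipocytes was sequenced after oligo-dT selection with a strand-marking kit. The authors aligned reads with TopHat2 2.0.11 and counted them per gene with HTSeq, per the labels. The strand setting and the annotation are not given in the sources used here. The deposited raw counts were used. Columns with the authors' own DESeq2 comparisons were not used. Genes were filtered with filterByExpr (minimum count 10), scaled by TMM and fitted with edgeR 4.0.16 in R 4.3.3 (quasi-likelihood, all 8 libraries, 4 groups, 4 residual degrees of freedom). p-values were adjusted by Benjamini-Hochberg over all 14587 genes tested, and a gene was called at an adjusted p under 0.05. The SE is that of the log2 fold change. On simulated data with 200 genes changed by 0.5 on the log2 scale, 137 were recovered among 147 calls. With a change of 1, 159 were recovered among 170 calls. Both changes exceed the median called change in the data, 0.24, and no smaller change was simulated.

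Of 881 entries in 27 gene lists, 880 matched. Members, lists and motifs were chosen with earlier results of these data known. Named genes were the 10 largest rises and falls with groups that do not overlap and a higher mean of at least 5 CPM, leaving out symbols made of Gm and a number or ending in Rik, the 3 called members with the smallest p per list and direction, the PI3K subunits, and the 5 smallest p in the other contrasts. Further called list members are given to show the list. Coordinates are those of GENCODE on GRCm38. Promoter windows are from RefSeq. Totals were 42247091 to 57529803 counts per library. Alternatives were RLE and library-size scaling, DESeq2 1.42.0, other filters, a 1.5-fold minimum, a length trend, the 4 libraries alone, a replicate block, each library left out and, added after the data had been seen, the labels with and without A66 exchanged. Some results are not reported here.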

Additional observations from a re-analysis of the deposited data

Results flagged for a closer look

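The effect of A66 on Hmox1, heme oxygenase 1, differed with and without palmitate. Without palmitate, Hmox1 stood at 373.6 and 400.8 CPM in untreated cells and at 352 and 358.1 CPM with A66. With palmitate, it stood at 393.7 and 393 CPM, and at 494.1 and 489 CPM once A66 was added. The difference between the 2 effects was 0.447 on the log2 scale (edgeR interaction term, adjusted p = 0.0019), with the A66 libraries lower in 2 of 2 cases without palmitate and higher in 2 of 2 with it. The effect of A66 without palmitate was not called on its own (adjusted p = 0.17), and without A66 library 1 the interaction was not called for any gene.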

How the results depend on the processing

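The 1094 calls of palmitate plus A66 against untreated became 1097 with RLE scaling, 1041 with DESeq2, 1363 without a filter, 909 on the 4 libraries alone and 1182 with the length trend removed. Leaving out each library gave 437 to 1236 calls, 223 to 653 higher and 214 to 607 lower. Scaling by library size alone gave 367 higher and 859 lower, and a minimum of 1.5-fold 0 higher and 4 lower. Exchanging the labels with and without A66, an alternative chosen after seeing the data, gave 432 calls, 256 higher and 176 lower. Under it, higher and lower members were 13 and 1 for lipogenesis, 3 and 1 for glycolysis, and 4 and 2 for matrix. They were 7 and 1 for ATF4, 5 and 0 for the unfolded protein response, 4 and 0 for NRF2 and 0 and 0 for autophagy. For ceramide they were 1 and 4, for inflammation 0 and 1, and for FOXO targets 1 and 2. Against palmitate alone, no filter gave 652 calls and leaving out each library 147 to 494. Against A66 alone, no filter gave 664 and leaving out each library 107 to 502. The interaction gave 2 calls with library size only, 21 with DESeq2, 91 without a filter and 0 to 10 with each library left out. Same-numbered deviations correlated between groups at -0.148 to 0.153, which neither shows nor excludes a pairing by replicate number. The tail-less share was higher in replicate 2 than in replicate 1 of every group. The replicate block gave 1100 calls against untreated, 901 on the 4 libraries alone, 448 against palmitate, 438 against A66 and 3 in the interaction. Of 236 called genes followed (231 with DESeq2, 234 with 10 counts in every library), none reversed. Some lost their call, the most when combined library 1 was left out. They were not followed under the 1.5-fold minimum or the exchange of labels. Under that exchange Ifi44, for instance, turned in direction, at 4.06 and 4.23 CPM with palmitate against 1.08 and 2.15 CPM with A66. Among genes not called, the log2 fold change turned direction with single libraries left out: Nrep was -0.01 without combined library 2 (0.134 without combined library 1), Ogn 0.031 without untreated library 1 and 0.036 without combined library 1 (-0.175 without combined library 2), and Pik3cb 0.005 without combined library 2 (-0.184 without combined library 1). The cause was not tested. Genes near 3 counts are limited by depth.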
